A study of Rattus norvegicus with 6 samples.

Results

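Neutrophil granule proteins and calgranulins are made in bulk while granulocytes mature. Of 10 such genes that were looked for on expression arrays of newborn rat skeletal muscle, 8 had a row, among 26419 transcripts on the array and 9660 gene symbols that could be given to them. These are the calgranulins *S100a8* and *S100a9*, the stefins *Stfa2* and *Stfa2l1*, and the granule protein genes *Lcn2*, *Fcnb*, *Camp* and *Ngp*. The rows of *Stfa2*, *Camp* and *Ngp* could be named only through the study's printed list of genes higher in low birth weight pups. The early granule enzymes *Mpo* and *Elane* had no row that could be named and were not analysed here. The 10 genes were chosen by their place in neutrophil biology and with the difference between the birth weight groups already known, so that the values of the 8 genes in that comparison are given below as a description without a test. The arrays compared 3 low birth weight (LBW) pups with 3 pups of average birth weight (ABW), the newborn controls of the labels, all male Wistar rats aged 1 day. Birth weights lay in percentiles 5 to 25 for LBW and, by the labels, 25 to 75 for ABW, while the study's text starts the ABW range at the median. Soleus and gastrocnemius were pooled within a pup, and each pup's RNA was hybridized to a single-colour NimbleGen array with 5 probes per transcript.

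Neutrophil granules are filled in order during maturation in the bone marrow. Azurophil (primary) granules come first and carry serine proteases and myeloperoxidase, followed by specific granules with lipocalin, cathelicidin and collagenase, and last by gelatinase granules. S100a8 and S100a9 form calprotectin, a calcium- and zinc-binding heterodimer that fills the cytosol of neutrophils and is also made by activated keratinocytes and some macrophages. Stefins of the A type are cytosolic inhibitors of cysteine cathepsins, and rodents carry them as a cluster of similar copies. Muscle fibres are not known as a main source of these transcripts. In RNA from a whole muscle, fewer cells of a type and less RNA per cell cannot be told apart.

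The deposited values are log2 signals, and medians of the 6 arrays lay between 8.7 and 8.76. The dimmest 25% of transcripts on an array ended between 6.17 and 6.23, and how far such signals lay above background is unknown, since the values carry no detection call. The 9 skeletal muscle markers with a row, *Acta1* among them at 15.15 to 15.41, differed between the groups by -0.13 to 0.25. LBW 2 lay between the other LBW pups and the ABW pups for *S100a8*, *S100a9*, *Stfa2*, *Stfa2l1*, *Camp* and *Ngp*, but not for all genes described here. For some genes the difference without LBW 2 is given as well. No slide or hybridization batch is given in the labels, and batches were not analysed here.

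Windows of the 250 bases before the start were available here for 8 of the 10 genes (RefSeq, build GRCr8), without *S100a8* and *Elane*. Those of *S100a9*, *Stfa2* and *Stfa2l1*, whose signals moved together, and of *Lcn2*, whose signals overlapped between the groups, are printed 5′ to 3′ so that the control regions can be compared with the values that follow. Capitals mark matches, on either strand, to the letters searched for C/EBP (TTNCNNAA), PU.1 (GAGGAA), RUNX (TGTGGT), MYB (CAACTG) and the TATA box (TATAAA), factors and a core element that are known from myeloid genes.
S100a9 (chr2:178490623-178490872, minus strand): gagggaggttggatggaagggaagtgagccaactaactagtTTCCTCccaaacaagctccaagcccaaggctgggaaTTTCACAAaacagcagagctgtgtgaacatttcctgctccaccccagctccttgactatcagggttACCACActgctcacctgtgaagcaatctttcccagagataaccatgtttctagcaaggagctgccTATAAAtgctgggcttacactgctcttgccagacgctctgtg
Stfa2 (chr11:78049536-78049785, plus strand): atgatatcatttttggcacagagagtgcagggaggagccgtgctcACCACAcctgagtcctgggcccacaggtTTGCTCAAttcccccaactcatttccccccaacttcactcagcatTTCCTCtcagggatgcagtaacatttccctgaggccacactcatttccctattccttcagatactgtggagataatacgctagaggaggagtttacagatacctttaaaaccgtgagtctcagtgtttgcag
Stfa2l1 (chr11:77950203-77950452, minus strand): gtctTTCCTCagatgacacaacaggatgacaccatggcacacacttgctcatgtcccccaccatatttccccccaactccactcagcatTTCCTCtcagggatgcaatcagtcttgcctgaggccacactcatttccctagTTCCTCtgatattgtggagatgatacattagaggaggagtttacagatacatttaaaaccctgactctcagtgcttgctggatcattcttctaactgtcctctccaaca
Lcn2 (chr3:36081781-36082030, minus strand): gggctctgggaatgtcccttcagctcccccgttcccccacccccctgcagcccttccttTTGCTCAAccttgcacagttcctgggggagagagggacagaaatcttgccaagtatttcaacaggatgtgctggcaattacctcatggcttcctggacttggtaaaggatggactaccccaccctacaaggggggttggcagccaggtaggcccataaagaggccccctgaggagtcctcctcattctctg

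*S100a9* holds a C/EBP match 173 to 166 bases before the start, a PU.1 match at 209 to 204, a RUNX match at 107 to 102 and a TATA box at 42 to 37, the only TATA match among the 8 windows. *Stfa2* has a C/EBP, a PU.1 and a RUNX match, *Stfa2l1* has 3 PU.1 matches and none of the others, and *Lcn2* has a C/EBP match alone. Over the 8 windows (those of *Mpo*, *Fcnb*, *Camp* and *Ngp* included), C/EBP letters were found in 6, PU.1 in 4, RUNX in 2 and MYB in 0. Of 33465 promoter windows of the same length, 37.2% held the C/EBP letters, 23.3% PU.1, 14.5% RUNX, 11.4% MYB and 12.9% the TATA box. *Camp* had no match to any of the letters in this window, *Ngp* had 4 C/EBP matches, and *Lcn2* and *Fcnb* had C/EBP matches. A match is a description of letters and not of a bound factor. The windows of most stefins aligned over much of their length. *Stfa2* and *Stfa2l1* were identical in 175 of 213 aligned bases (82.2%), and *Stfa2* and its neighbour *Stfa2l3* in 198 of 201 (98.5%), while the window of *Stfa3l1* aligned with that of *Stfa2* over only 20 bases (13 identical).

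Of the 8 genes, 6 had a higher signal in every LBW pup than in any ABW pup, by a mean of 2.78- to 4.94-fold, and the groups overlapped for *Lcn2* and *Fcnb*. All 8 had a higher mean in LBW, and 6 of 8 had a log2 difference of at least 1. For all transcripts, 7.28% had every LBW pup above every ABW pup, 1.12% had a log2 difference of at least 1, and 44.4% had a higher mean in LBW. Because the genes were selected on this comparison, nothing is read from these counts. *Stfa2*, *Camp* and *Ngp* were moreover included only because their rows are printed among the study's genes higher in LBW. The median log2 difference over the 8 genes was 2.02, where the median over all transcripts was -0.02. Taking the deviation of each gene from its ABW mean, the median over the 8 genes reached 2.46 in LBW 1 and 2.31 in LBW 3 but 1.05 in LBW 2. The corresponding medians of ABW 1, 2 and 3 were 0.01, 0.13 and -0.11.

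**Figure D1:**
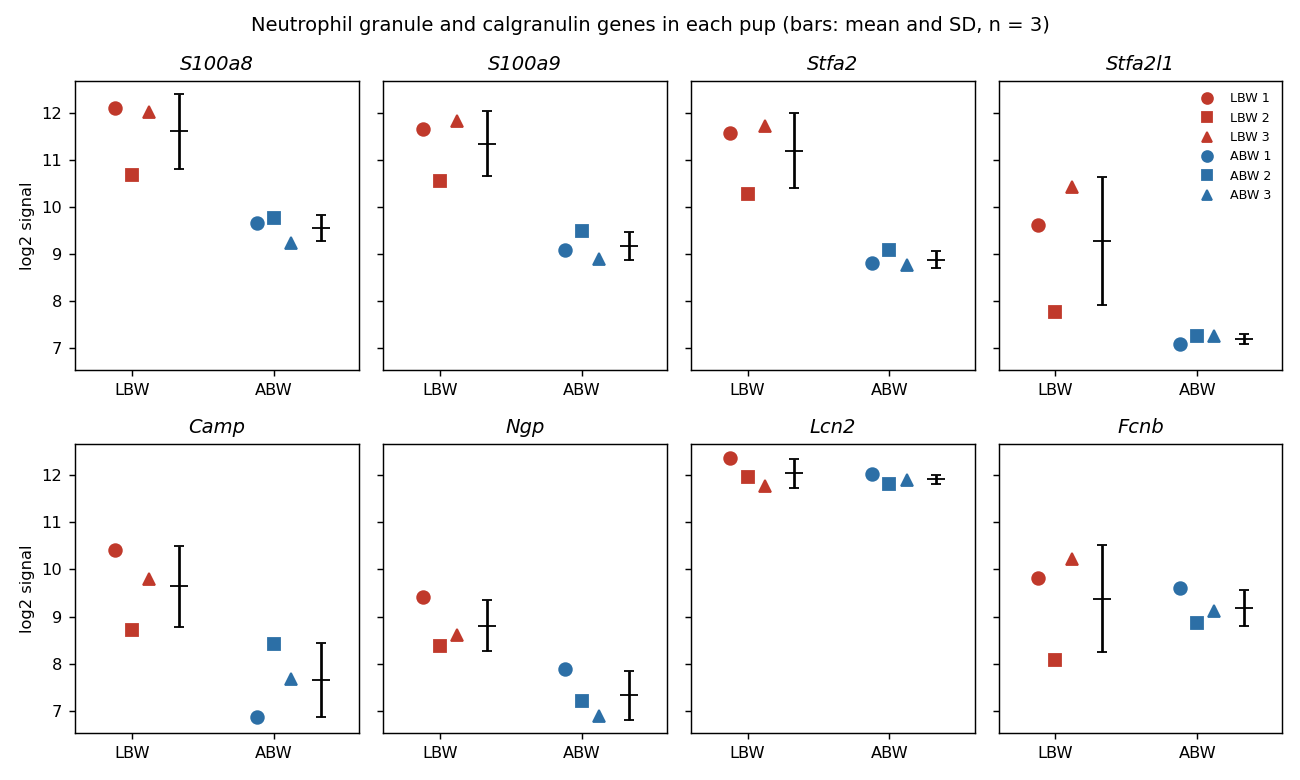
Log2 signal of the 8 genes (y axis) in each LBW and ABW pup (x axis), 1 panel per gene, with the mean and SD of the 3 pups beside the points. The LBW pups lie above the ABW pups without overlap for *S100a8*, *S100a9*, *Stfa2*, *Stfa2l1*, *Camp* and *Ngp*, with LBW 2 lowest of the 3, and the groups overlap for *Lcn2* and *Fcnb*.

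Both calgranulin subunits were high in the same pups. *S100a8* (NM_053822) had log2 signals of 12.09, 10.68 and 12.02 in LBW 1, 2 and 3 and of 9.66, 9.76 and 9.23 in ABW 1, 2 and 3. LBW 2 thus lay 0.92 above the highest ABW pup and well below the other LBW pups. The means of 11.60 ± 0.79 and 9.55 ± 0.28 (SD, n = 3 each) differed 4.14-fold. *S100a9* (NM_053587) was at 11.66, 10.55 and 11.82 in LBW and at 9.08, 9.49 and 8.90 in ABW pups. The groups were 1.06 apart at their nearest, and the means of 11.34 ± 0.69 and 9.16 ± 0.30 (SD, n = 3 each) differed 4.55-fold. Expressed as deviations from the ABW mean, the 2 subunits differed by 0.14 on average and by at most 0.26 in any pup (LBW 2).

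The stefins followed the calgranulins. *Stfa2* (XM_001070878) was at 11.57, 10.28 and 11.71 in LBW 1, 2 and 3 and at 8.81, 9.08 and 8.76 in the ABW pups. It had the widest gap between the groups of the 8 genes, 1.20 on the log2 scale, and the largest fold, 4.94, with means of 11.19 ± 0.79 in LBW and 8.88 ± 0.18 in ABW (SD, n = 3 each). *Stfa2l1* (NM_001004129) was at 9.62, 7.77 and 10.42 in LBW and at 7.08, 7.25 and 7.25 in ABW pups. The 3 LBW pups spanned 2.65 and the ABW pups 0.17, so that LBW 2 cleared the ABW pups by only 0.52. Its fold was 4.21, with means of 9.27 ± 1.36 and 7.19 ± 0.10 (SD, n = 3 each), and its log2 difference ran from 1.5 without LBW 3 to 2.82 without LBW 2. Among all pairs of the 8 genes, *S100a9* and *Stfa2* had the nearest profiles although they lie on chromosomes 2 and 11, with a mean difference of 0.10 between their deviations and at most 0.18 in any pup (LBW 1). *Stfa2* and *Stfa2l1*, which are close relatives, differed by 0.31 on average and by 0.83 in LBW 2.

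Of the 4 genes for late granule contents, 2 had all LBW pups above the ABW pups and 2 had not. The 2 that did, *Camp* and *Ngp*, could be named only through the study's printed list of genes higher in LBW. Nothing is therefore read from this split. *Camp* (XM_001075585), which encodes the antimicrobial peptide cathelicidin of specific granules, was at 10.41, 8.71 and 9.80 in LBW 1, 2 and 3 and at 6.86, 8.42 and 7.67 in ABW 1, 2 and 3. The ABW pups were spread over 1.57 for this gene, and ABW 2 came within 0.28 of LBW 2. The means of 9.64 ± 0.86 and 7.65 ± 0.78 (SD, n = 3 each) differed 3.97-fold. *Ngp* (XM_001075794), a cathelicidin-related protein of specific granules, was at 9.42, 8.38 and 8.61 in LBW and at 7.89, 7.21 and 6.88 in ABW pups. The groups were 0.49 apart at their nearest and the fold was 2.78, with means of 8.81 ± 0.55 and 7.33 ± 0.52 (SD, n = 3 each). For *Ngp* and *Camp* LBW 1 was highest, whereas LBW 3 was highest for *S100a9* and both stefins. The profiles of *Ngp* and *Stfa2l1* were 1.94 apart in LBW 3.

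*Lcn2* (NM_130741), which encodes the iron-siderophore binding lipocalin of specific granules and is also made by many epithelia, was at 12.37, 11.96 and 11.77 in LBW and at 12.02, 11.82 and 11.90 in ABW pups. All 6 pups lay within 0.60, and LBW 3, with the highest *S100a9*, had the lowest *Lcn2*. The means of 12.04 ± 0.31 and 11.91 ± 0.10 (SD, n = 3 each) differed by 0.12, and the difference was -0.05 without LBW 1. *Fcnb* (NM_053634), ficolin B, a lectin that starts complement activation, was at 9.82, 8.08 and 10.23 in LBW and at 9.61, 8.86 and 9.11 in ABW pups. LBW 3 and LBW 1 were the highest and LBW 2 the lowest of all pups. The mean difference of 0.19 (9.38 ± 1.14 against 9.19 ± 0.38, SD, n = 3 each) was 0.84 without LBW 2 and -0.24 without LBW 3. Within the LBW group the order LBW 3, LBW 1, LBW 2 of *Fcnb* was that of *S100a9* and both stefins, but LBW 2 was below all ABW pups for *Fcnb*.

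As no row could be named *Mpo* or *Elane*, 3 other genes of the azurophil list are given, *Prtn3*, *Prss57* and *Bpi*, which were picked after their values were seen and do not stand for the early granule as a whole. Alpha defensins, which azurophil granules also hold, are described further on and include genes with differences of 1.22 to 1.76. *Prtn3*, proteinase 3, was at 5.93, 5.91 and 5.73 in LBW and at 5.85, 5.98 and 5.96 in ABW pups, all within the dimmest 25% of transcripts. *Bpi*, which encodes a protein that binds bacterial endotoxin, was at 5.58 to 5.80 in LBW and 5.67 to 6.07 in ABW pups. *Prss57* was at 6.18 to 6.54 in LBW pups and at 5.17 to 6.58 in ABW pups. None of the 3 separated the groups, and their mean deviation from the ABW mean was -0.05, 0.11 and 0.04 in LBW 1, 2 and 3. The 4 cytosolic genes (calgranulins and stefins) deviated by 2.54, 1.13 and 2.80 in the same pups, and the 4 late granule genes by 1.49, 0.26 and 1.08. *Stfa2*, *Camp* and *Ngp* among these could be named only through the study's printed list of genes higher in LBW. The late granule genes named without it, *Lcn2* and *Fcnb*, differed by 0.12 and 0.19. No contrast of early with late granule genes is read from these values. Signals as dim as those of *Prtn3* and *Bpi* can hide a difference, because background is not known here.

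Other genes of the neutrophil were read from 7 lists of granule proteins, stefins, alpha defensins, NADPH oxidase subunits, regulators of granulopoiesis and surface receptors, with 89 genes listed and 64 with a row. The limma test was run over the whole array, with the variance of each transcript moderated by that of the others. The threshold of the study was used, an unadjusted p under 0.05 with a fold change of at least 1.5. Of the 64 genes, 8 were higher in LBW pups (12.5%) and 1 was lower, against 2.38% of all transcripts higher, 1.9% lower and 4.28% in either direction. Of those 8, the 6 genes *Mmp8*, *Mmp9*, *Retnlg*, *Olfm4*, *Stfa2l2* and *Stfa2l3* are printed in the study's list of top genes and were therefore picked on these samples. Among the 58 genes outside that list, 2 were higher (3.45%) and 1 was lower. After Benjamini-Hochberg adjustment over all transcripts, 0 of the 64 genes passed by limma (smallest adjusted p = 0.216), where 11 had an unadjusted p under 0.05. With 3 pups against 3, an exact permutation test of 1 gene reaches p = 0.1 at best.

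**Figure D2:**
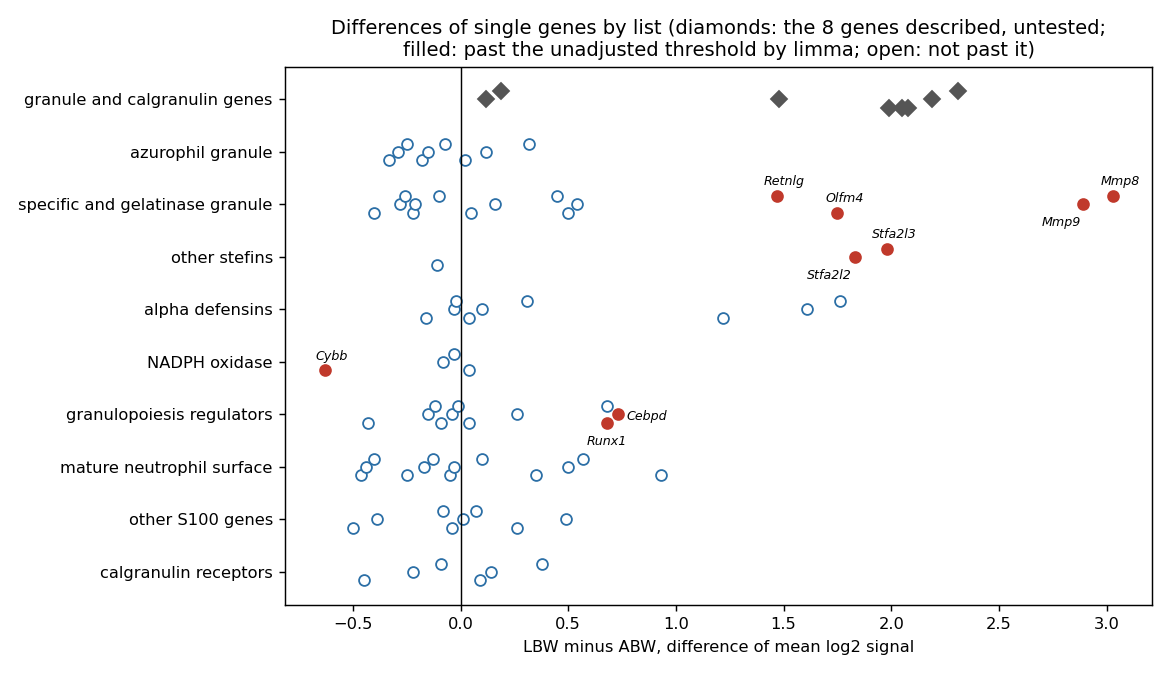
Difference of the mean log2 signal between LBW and ABW pups (x axis) for each gene of the lists (y axis). Diamonds are the 8 granule and calgranulin genes, filled points passed the unadjusted threshold by limma, and open points did not. *Mmp8* at 3.03 lies farthest to the right, the open points of the defensin list between 1.22 and 1.76 are *Defa5*, *RatNP-3b* and *Np4*, and *Cybb* at -0.63 is the only filled point below 0.

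In the list of specific and gelatinase granule genes, 4 of 15 passed, all higher in LBW. *Mmp8*, neutrophil collagenase, was at 9.64, 7.63 and 9.42 in LBW and at 5.49, 6.09 and 6.03 in ABW pups (log2 difference 3.03, SE 0.53, adjusted p = 0.216 by limma). The groups did not overlap, and LBW 2 was again the lowest LBW pup. *Olfm4*, a specific granule glycoprotein of a subset of neutrophils, was at 8.47, 6.45 and 8.01 against 5.52, 6.17 and 5.99 (1.75, SE 0.51, adjusted p = 0.302 by limma). *Retnlg*, a resistin-like protein of neutrophils, was at 7.81, 5.98 and 6.62 against 5.21, 5.28 and 5.52 (1.47, SE 0.43, adjusted p = 0.306 by limma). *Mmp9*, gelatinase B, which osteoclasts also make, overlapped because LBW 2 at 6.49 lay below ABW 1 at 6.53 (2.89, SE 1.13, adjusted p = 0.380 by limma), and with any 1 pup left out it was past the threshold only without LBW 2 (4.21). Among those not past, *B2m* differed by -0.10 and *Lyz2*, a lysozyme shared with macrophages, by 0.16.

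Neighbours of the stefins and calgranulins were looked at after the values of the genes were known. On chromosome 11 of GRCr8, *Stfa2* and *Stfa2l1* have 27 protein-coding neighbours within 12 places on either side, of which 13 had a row. Of these, *Csta3* (1.59, adjusted p = 0.252 by limma), *Stfa2l2* (rows at 1.88 and 1.77, adjusted p = 0.216 for each by limma) and *Stfa2l3* (1.98, adjusted p = 0.216 by limma) were past the unadjusted threshold, all copies of the stefin A type within the same cluster. *Csta3* was on no list and is named after its value was seen. *Stfa2l2* and *Stfa2l3* could be named only through the study's printed list of genes higher in LBW. Over all transcripts, 4.28% were past the threshold in either direction. Because of that naming, nothing is read from the count of neighbours past it. *Stfa3l1*, the next gene after *Stfa2l3*, differed by 0.00, and the other 9 neighbours, none of them stefins, by -0.95 to 0.24. The copies are so alike that probes may be shared between them, and since probe sequences were not analysed here, the stefin rows cannot be counted as separate observations. On chromosome 2, *S100a8* and *S100a9* lie side by side, and 7 of their 24 neighbours had a row. None of the 7 passed (limma), and they differed by -0.39 for *S100a1* to 0.49 for *S100a4*. Over the whole S100 list, 0 of 8 other members passed by limma or by the methods' t-test, and 1 had an unadjusted p under 0.05 by limma. *S100a11* (-0.08) and *S100a10* (0.01) were at nearly the same level in each group.

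**Figure D3:**
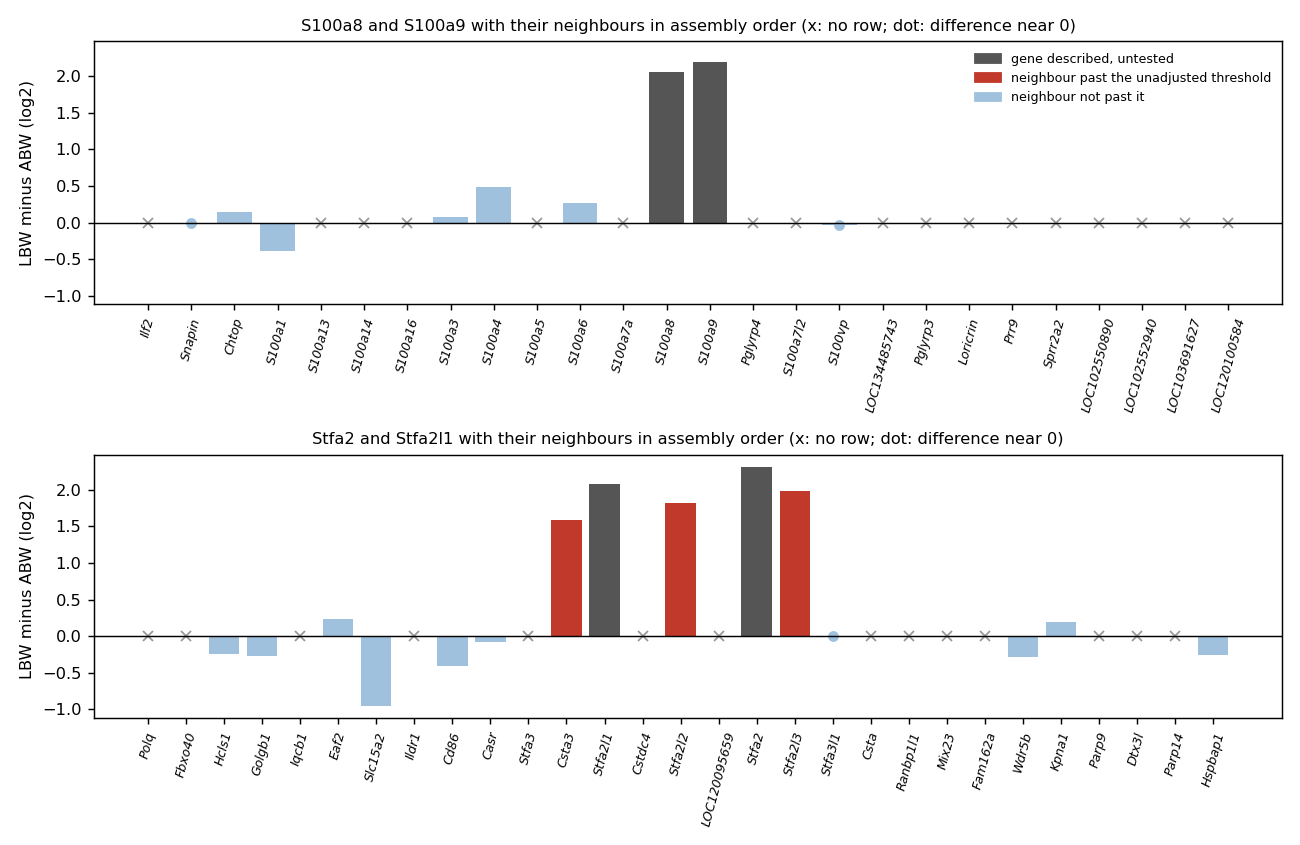
Difference of the mean log2 signal between LBW and ABW pups (y axis) for *S100a8* and *S100a9* (upper panel) and *Stfa2* and *Stfa2l1* (lower panel) with their protein-coding neighbours in assembly order (x axis). Grey bars are the genes described here, red bars neighbours past the unadjusted threshold by limma, blue bars and dots neighbours that did not pass, and crosses genes without a row. High bars in the upper panel are those of *S100a8* (2.05) and *S100a9* (2.19), and in the lower panel they run from *Csta3* to *Stfa2l3*.

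Alpha defensins, some of which rat neutrophils store in azurophil granules and others of which are made in the gut, held genes with another order of pups. *Np4* had signals of 10.71, 8.75 and 6.09 in LBW 1, 2 and 3 against 6.37, 7.38 and 6.53 in the ABW pups (1.76, SE 1.08, adjusted p = 0.558 by limma). *RatNP-3b* was at 10.37, 8.59 and 6.22 against 6.86, 7.34 and 6.17 (1.61, SE 0.98, adjusted p = 0.556 by limma). LBW 3, among the highest pups for the calgranulins and stefins, was thus within or below the ABW values for these 2 defensins. *Defa5* was at 9.24, 7.25 and 6.68 against 6.25, 7.35 and 5.92, with only LBW 1 above all ABW pups. None of the 9 defensin genes with a row passed by limma (0 at an unadjusted p under 0.05) or by the methods' t-test. The other 6 differed by -0.16 to 0.31, and *Defa6*, *Defa8* and *Defa9* lay at 5.14 to 5.68 in all pups, within the dimmest 25% of transcripts. Defensin sequences were not compared here, and rows of related copies may share signal.

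Among genes of the oxidative burst and of the neutrophil surface, none was higher in LBW pups at the threshold by limma, and the 2 with an unadjusted p under 0.05 (*Cybb* and *Csf2rb*) were lower. *Cybb*, the catalytic subunit of the phagocyte NADPH oxidase, was lower in LBW pups (-0.63, SE 0.25, adjusted p = 0.379 by limma), and this call was lost without ABW 2, without ABW 3 or without LBW 3 (-0.40). Its partners *Cyba* (-0.08) and *Rac2* (0.04) did not pass. Of the 13 surface and signalling genes of mature neutrophils with a row, 0 passed by limma or by the methods' t-test, and 1 had an unadjusted p under 0.05 by limma. *Cxcr2*, the receptor for neutrophil-attracting chemokines, was at 6.46, 5.57 and 7.28 in LBW and at 5.36, 5.82 and 5.35 in ABW pups (0.93, SE 0.41, adjusted p = 0.432 by limma). It was highest in LBW 3 and LBW 1, with LBW 2 inside the ABW values, and it is named after its values were seen. *Alox5ap* (-0.13) and *Csf2rb* (-0.44) did not pass. In the azurophil list, 0 of 9 genes passed by limma or by the methods' t-test and 1 had an unadjusted p under 0.05 by limma, with *Cd63* at 0.02 and *Ctsc*, the protease that activates the granule serine proteases, at -0.25.

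Of the regulators of granulopoiesis, *Cebpd* and *Runx1* were higher in LBW pups and 9 of 11 did not pass. *Runx1*, a factor of blood stem cells and myeloid progenitors, was at 10.27, 10.55 and 10.46 in LBW and at 9.85, 9.92 and 9.49 in ABW pups (0.68, SE 0.14, adjusted p = 0.249 by limma). *Cebpd*, a C/EBP factor of late myeloid cells and of adipocytes, was at 8.65, 8.83 and 8.03 against 7.82, 7.86 and 7.65 (0.73, SE 0.21, adjusted p = 0.302 by limma). Neither gene followed the order of the calgranulins, since LBW 2 had the highest value of both. *Cebpe* (-0.09) and *Gfi1* (-0.04), factors of the granule program, did not pass, nor did *Rara* (0.04) or *Kit* (-0.43). Without LBW 2 *Cebpd* and without ABW 3 *Runx1* fell below the fold change of 1.5. Among receptors of the calgranulins, 0 of 6 passed by limma or by the methods' t-test and 1 had an unadjusted p under 0.05 by limma, with *Tlr4* at -0.45, *Cd36* at -0.09 and *Bsg* at 0.09.

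Markers of other cells that muscle RNA could hold were read in the same pups. Of 10 bone markers with a row (of 11 listed), 7 passed the unadjusted threshold by limma, all higher in LBW, and 6 of the 10 are in the study's printed list. The 6 were thus picked on these samples, and *Mmp13* and *Runx2* among them could be named only through that list. Of all transcripts, 2.38% were higher in LBW at this threshold. *Mmp13*, collagenase of bone and cartilage, differed by 5.21 (adjusted p = 0.229 by limma) and *Spp1*, osteopontin, by 5.02 (adjusted p = 0.249 by limma). The methods' t-test kept 4 of the 7, and with a pup left out *Phex* (0.60) passed in 3 of 6 fits and *Runx2* (2.26) in 2 of 6. The mean deviation of the 10 markers from the ABW mean was 3.46, 0.90 and 4.66 in LBW 1, 2 and 3, so that LBW 2 was lowest here too, as it was for the calgranulins. The log2 of their summed signals ran from 12.18 to 15.99 in LBW and from 11.08 to 11.36 in ABW pups. Of 4 osteoclast markers with a row (of 8), 1 passed (*Acp5*, 1.97), which with any pup left out did so only without LBW 2 (2.81) and was lost by the methods' t-test, and the mean deviations were 1.35, 0.10 and 2.31, with summed signals of 13.03 to 14.44 in LBW and 13.11 to 13.22 in ABW. The part of bone and marrow tissue in the values of the granule genes was not tested.

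No listed marker of macrophages, red cell precursors or skin passed. Of 6 macrophage markers with a row (of 10), 0 passed by limma, with 0 at an unadjusted p under 0.05, and the mean deviations of -0.19, -0.06 and -0.26 in LBW 1, 2 and 3 lay inside those of the ABW pups (-0.37 to 0.24). *C1qc* (-0.22) and *C1qb* (-0.08) stand for them, and the log2 of the summed signals was 14.55 to 14.67 in LBW and 14.44 to 14.95 in ABW. Of 7 erythroid markers with a row (of 11), 0 passed by limma, with 0 at an unadjusted p under 0.05. Their mean deviation was -0.33 in LBW 1 and -0.70 in LBW 3, where the calgranulins were highest, and 0.29 in LBW 2. In ABW 1, 2 and 3 it was 0.26, 0.03 and -0.29, so that LBW 1 and LBW 2 lay close to ABW pups. Of 5 keratinocyte markers with a row (of 11), 0 passed by limma, with 0 at an unadjusted p under 0.05, and ABW 2 stood above the other pups with a mean deviation of 1.04. *Krt15*, the brightest, was at 7.23, 7.84 and 7.02 in LBW and at 6.83, 8.67 and 7.37 in ABW pups, above the dimmest 25% of transcripts, and *Krt14* was at 6.21 to 6.38 in LBW pups, near that limit. Of 2 B lineage markers with a row (of 10), 0 passed by limma, with 0 at an unadjusted p under 0.05.

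**Figure D4:**
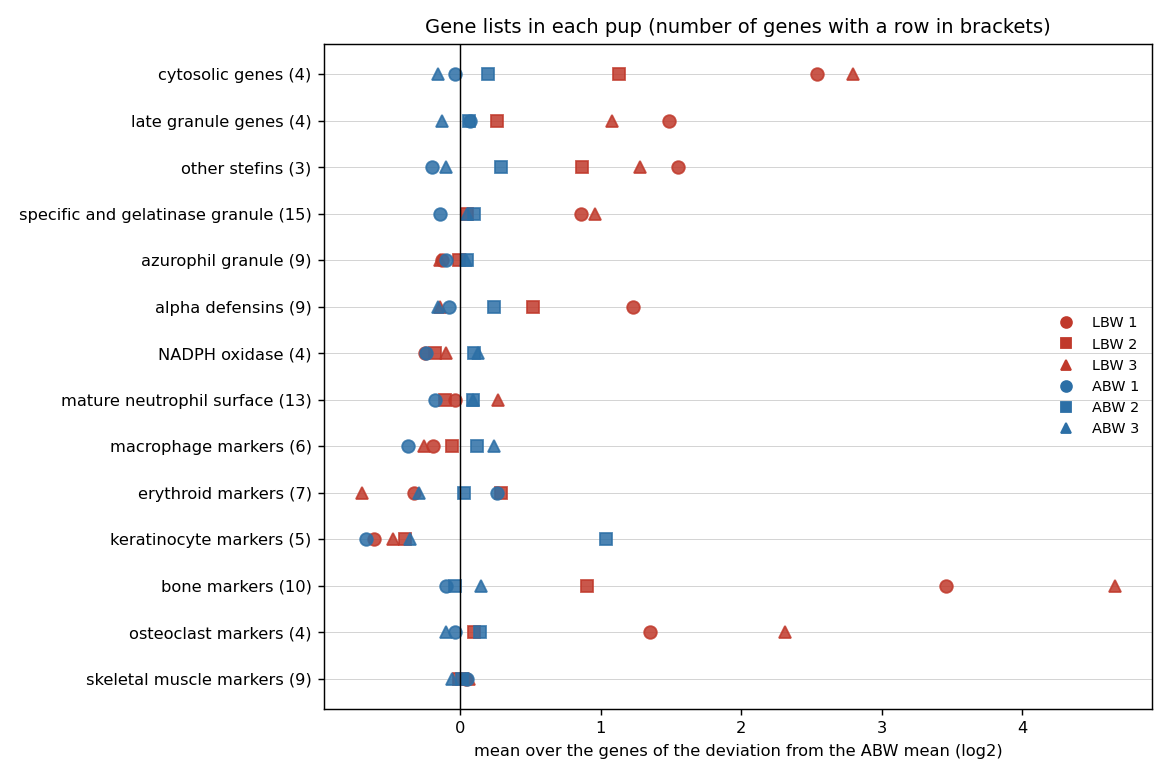
Mean over the genes of each list of the deviation from the ABW mean on the log2 scale (x axis), 1 symbol per pup, with the number of genes with a row after the list's name (y axis). Cytosolic genes, late granule genes, stefins, bone and osteoclast markers have LBW 1 and LBW 3 to the right with LBW 2 nearer the ABW pups, the defensins have LBW 1 to the right and LBW 3 among the ABW pups, and the macrophage and muscle markers show no separation.

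The genes whose profile over the 6 pups came nearest to the mean of the 8 genes were sought among the other 9652 symbols, by the mean absolute difference of the deviations from the ABW mean. *RGD1560135*, named in the study's printed list as similar to a double homeobox gene, was nearest (0.16 on the log2 scale), with 10.64, 9.06 and 10.78 in LBW and 8.83, 8.79 and 8.24 in ABW pups. It was followed by *Stfa2l2* (0.24) and *Cyp26b1* (0.24), a retinoic acid hydroxylase. *Ptprz1* (0.25), a receptor tyrosine phosphatase, and *Col10a1* (0.26), the collagen of hypertrophic cartilage, came next. Of these 5, *Stfa2l2* alone is in the neutrophil lists. The rest of the 10 nearest were *Krt26* (0.27), *LOC301772* (0.27), *Olfm4* (0.28), *RGD1563626* (0.29) and *Retnlg* (0.30). Of these, *Olfm4* and *Retnlg* are in the neutrophil lists. *Krt26*, a keratin that is not in the keratinocyte list, differed by 1.38. Rows without a name were not searched. *RGD1560135*, *Stfa2l2*, *Col10a1*, *LOC301772*, *Olfm4* and *RGD1563626* could be named only because the study prints them among its genes higher in LBW. *Ptprz1* and *Retnlg* are printed there as well. They were thus picked on these samples, and nothing is read from their nearness. For comparison, single genes of the 8 differed from the mean of the others by 0.35 (*S100a8*) to 0.95 (*Fcnb*).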

How the data were processed

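RNA from the muscles of 6 newborn pups was hybridized to single-colour (Cy3) NimbleGen arrays with 5 probes per transcript. The authors deposited log2 values for 26419 transcripts, 1 column per pup, which they had normalized in R with Bioconductor packages. The submitters' processing notes name RMA, and no further detail is given in the sources used here.

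Rows were named through RefSeq accessions of the assembly GRCr8 (9747 rows) and the printed supplementary tables (34 more rows), which gave 9660 symbols. The probe design follows another build, so that coordinates are given only for RefSeq promoter windows. Rows of a symbol were averaged. Differences are LBW minus ABW means on the log2 scale. All rows were fitted with limma 3.58.1 in R 4.3.3 (lmFit, eBayes), 2-sided, with Benjamini-Hochberg adjustment, and the script was tested on simulated data. Each gene had the same 3 arrays per group, whose number limits the precision. The labels call the pups biological replicates but give no litters, and p-values measure the spread between these pups.

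Genes and lists were chosen with earlier results of these data known. Named are the 8 genes, at most 4 genes past the threshold and 2 with high signals of each list, and the 5 nearest profiles. Names outside this rule are marked or serve as examples. The lists also covered mast cells and eosinophils, of which 1 of 6 genes (*Mcpt1*, 0.77) passed the unadjusted threshold by limma. Only 2 of these 6 had a higher mean in LBW, and their median difference was -0.16. Alternatives were a replicate block, leaving out each pup, quantile normalization, median centring, a filter on dim rows, an intensity trend, the methods' t-test, a fold change of 2, other ways to join or name rows, and arithmetic means.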

Additional observations from a re-analysis of the deposited data

How the results depend on the processing

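The median log2 difference of the 8 genes (2.02) lay between 1.70 and 2.48 with any pup left out and between 2.01 and 2.08 under quantile normalization, median centring, RefSeq names only (5 genes), arithmetic means and the row of highest level. The mean of the 8 genes minus that of *Prtn3*, *Prss57* and *Bpi* was 1.52 (1.24 to 1.98 with a pup left out), where the 3 genes were picked after seeing the data, *Prtn3* and *Bpi* are among the dimmest 25% of transcripts and the defensins are left out. With RefSeq names only, which drops *Stfa2*, *Camp* and *Ngp*, this value was 1.29. A comparison with *Mpo* and *Elane* was not run, because no row could be given these names. The count of 8 other neutrophil genes higher in LBW was 5 by the methods' t-test and 5 with RefSeq names only. It was 2 without the genes of the printed tables (added after seeing the data), and it ran from 6 to 12 with a pup left out. Without the dimmest 25% of rows it was 7, as *Retnlg* was dropped by that filter. Over all transcripts, 1131 were past the threshold, 586 by the methods' t-test, 336 at a fold change of at least 2, and 806 to 1555 with a pup left out. After adjustment 0 passed by limma (3270 at an unadjusted p under 0.05) and 0 by the methods' t-test (2515). *Mmp8*, *Retnlg*, *Olfm4*, *Stfa2l2* and *Stfa2l3* were past the threshold in all 6 fits with a pup left out, and the methods' t-test lost *Mmp9*, *Retnlg*, *Olfm4* and *Cybb*.

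Whether replicate numbers pair the pups is not known. The deviations of same-numbered pups correlated weakly, by 0.087, 0.103 and 0.0554, and each LBW pup correlated best with the ABW pup of its own number. These values cannot settle whether such pups shared a slide, batch or litter. In the fit with a replicate block, 1236 transcripts and 8 other neutrophil genes higher in LBW passed, the median of the 8 genes was 2.02 by construction, and *Cybb* was lost.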
